A study of Mus musculus with 56 samples.

Results

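The genes described here encode the proteins of the mitochondrial ribosome. They were taken as all genes whose symbol starts with Mrpl or Mrps followed by a digit. Of 78 such protein-coding genes in the RefSeq gene table, 76 had a named probe on the array, Mrpl41 and Mrpl44 being the ones without. A probe was kept when its detection p, which compares its signal with negative control probes, was under 0.05 on at least 6 of the 56 arrays. On this filter 68 of the 76 genes were kept, out of 9893 genes in all, and the brightest kept probe stood for each gene. The 54 of 79 listed cytosolic ribosomal protein genes that passed the same filter were set beside them.

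Mitochondria carry their own ribosome, which makes the few proteins of the respiratory chain and ATP synthase that mitochondrial DNA encodes. Its RNA comes from the mitochondrial genome, but every one of its proteins is encoded in the nucleus, made on cytosolic ribosomes and imported. The large subunit, which forms the peptide bond and holds the exit tunnel, is built from the Mrpl proteins, and the small subunit, which reads the message, from the Mrps proteins. Mrps18a and Mrps30 lie in the large subunit in spite of their names. Many of the proteins have bacterial counterparts, and others were gained on the way from the bacterial ancestor. Nerve cells depend on the respiratory chain for most of their ATP, and inherited defects of mitochondrial translation in humans often affect the brain.

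Hippocampal RNA had been measured in 56 male NMRI mice, an outbred stock, all adult (over 12 weeks old by the labels), with 1 Illumina bead array per mouse. The epileptic mice had chronic epilepsy after status epilepticus set off by the muscarinic agonist pilocarpine, which was given after N-methylscopolamine and ended with diazepam. They received a daily oral gavage of vehicle (17 mice), of PLX3397 at 3 mg/kg (18 mice) or of PLX3397 at 30 mg/kg (15 mice), and 6 naive mice that had never received pilocarpine were given vehicle. PLX3397 inhibits the kinase of Csf1R, the receptor that microglia need to survive. The sample labels give 7 days of treatment, whereas the design text of the series gives 2 weeks. Naive mice thus differed from epileptic vehicle mice in the whole pilocarpine procedure as well as in seizures. The p-values measure the spread between these mice.

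Median signal per array before normalisation ran from 109.22 to 138.27 in epileptic vehicle mice and from 110.3 to 142.01 at 3 mg/kg. It ran from 119.15 to 150.83 at 30 mg/kg and from 119.54 to 150.05 in naive mice. The medians over these groups were 126.79, 129.585, 136.62 and 138.335 in that order. Between 44.34% and 49.79% of probes were detected on an array. The 3 arrays with a quality weight under 0.5 were epileptic vehicle mouse 6 and 3 mg/kg mice 9 and 18. Of 12 neuron markers 9 were kept, and of 10 markers of hippocampal excitatory neurons 6. Csf1r itself had no named probe.

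Promoters are shown for 4 members on which the results below turn, as RefSeq gives them for GRCm38.p6, from 250 bases before the start used in its promoter table to 50 after it, in the direction of the gene. Mrpl33 (chr5:31613701-31614000, + strand) and Mrpl17 (chr7:105811038-105811337, - strand) are among the 6 members that rose most in epileptic mice. Capitals mark the ETS family motif CCGGAAG and the NRF1 motif GCGCATGC, both searched on either strand. NRF1 and the ETS factor GABPA are known regulators of nuclear genes for mitochondrial proteins.
Mrpl33: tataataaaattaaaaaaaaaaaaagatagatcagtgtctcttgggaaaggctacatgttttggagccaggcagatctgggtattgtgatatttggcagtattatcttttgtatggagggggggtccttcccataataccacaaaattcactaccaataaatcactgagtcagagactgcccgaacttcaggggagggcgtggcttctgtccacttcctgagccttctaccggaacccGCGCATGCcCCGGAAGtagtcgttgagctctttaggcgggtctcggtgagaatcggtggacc
Mrpl17: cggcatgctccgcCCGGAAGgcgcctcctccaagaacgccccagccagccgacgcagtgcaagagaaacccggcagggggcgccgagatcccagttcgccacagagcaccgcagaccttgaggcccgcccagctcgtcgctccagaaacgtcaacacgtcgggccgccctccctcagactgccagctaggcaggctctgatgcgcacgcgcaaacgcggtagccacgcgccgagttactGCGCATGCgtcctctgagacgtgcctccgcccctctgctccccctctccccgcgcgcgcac
Mrpl30 (chr1:37890227-37890526, + strand) rose most of all, and Mrps2 (chr2:28467816-28468115, + strand) was the only member called lower in epileptic vehicle mice and higher at both doses. The start used for Mrps2 lies inside the gene span of the RefSeq gene table, which runs from 28465951 to 28471177 on chromosome 2. Neither window held any of the motifs searched.
Mrpl30: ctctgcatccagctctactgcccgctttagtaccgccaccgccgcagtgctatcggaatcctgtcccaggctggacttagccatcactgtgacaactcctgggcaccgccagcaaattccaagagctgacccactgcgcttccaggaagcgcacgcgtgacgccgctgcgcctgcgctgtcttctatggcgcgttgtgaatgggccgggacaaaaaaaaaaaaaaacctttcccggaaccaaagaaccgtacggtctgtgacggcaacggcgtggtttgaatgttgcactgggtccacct
Mrps2: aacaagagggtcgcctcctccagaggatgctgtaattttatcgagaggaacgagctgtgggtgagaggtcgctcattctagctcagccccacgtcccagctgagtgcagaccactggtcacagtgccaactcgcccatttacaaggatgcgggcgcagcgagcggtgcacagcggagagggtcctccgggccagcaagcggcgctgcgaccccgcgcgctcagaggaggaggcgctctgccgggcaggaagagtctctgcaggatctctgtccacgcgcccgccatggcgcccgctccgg

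In Mrpl33 the ETS and NRF1 letters stood side by side across the start, beginning 3 and 12 bases before it. In Mrpl17 they began 237 and 11 bases before the start. The ETS motif was in 38.8% of the 67 member promoters in the RefSeq table, against 41.4% of 58 cytosolic ribosomal protein promoters, 18.0% of 8008 promoters of tested genes and 9.93% of all 27025 promoters. The NRF1 motif was in 11.9% of member promoters, 5.17% of cytosolic ones, 5.59% of those of tested genes and 3.05% of all. The YY1 motif AAGATGGCG was in 11.9% of member promoters, 5.17% of cytosolic ones, 3.3% of those of tested genes and 1.64% of all. The E-box CACGTG was in 7.46% of member promoters, 10.3% of cytosolic ones, 11.4% of those of tested genes and 8.09% of all. Among 46 promoters of members called higher in epileptic vehicle mice, 41.3% held the ETS, 10.9% the NRF1, 8.7% the YY1 motif and 6.52% the E-box. Among 15 of tested members not called higher these shares were 40.0%, 6.67%, 26.7% and 13.3%. No motif of the set contains another. These are counts of letters in a window of 300 bases, and whether any factor binds there was not measured.

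Most mitochondrial ribosomal protein genes were more highly expressed in the epileptic hippocampus. In epileptic vehicle mice 52 of 68 were higher than in naive mice and 3 were lower at an adjusted p under 0.05 (limma, adjusted over all 9893 genes), where 22.6% of all genes tested were called higher and 26.5% lower. The median log2 difference was 0.36 over the members and -0.01 over all genes. The rise was modest in size, with 12 members and 382 of all 9893 genes higher by at least 1.5-fold, and as the intensities carry background, folds of dim probes are understated. When arrays were scaled to equal medians in place of quantile normalisation, 35 members were higher and 8 lower with a median of 0.19, while the median of all genes moved to -0.06 with 13.0% called higher and 36.7% lower. In bulk tissue, more cells of a type and more RNA per cell cannot be told apart.

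Mrpl30, a large subunit protein with a bacterial counterpart, had log2 intensities from 10.04 to 11.00 (median 10.48) in epileptic vehicle mice and from 9.46 to 9.83 (median 9.62) in naive mice. No epileptic vehicle mouse overlapped the naive range, and the log2 difference was 0.79 ± 0.098 (SE), 1.73-fold (adjusted p = 1.21e-09). Mrpl33, one of the smallest proteins of the large subunit, lay between 11.09 and 11.82 (median 11.61) in epileptic vehicle mice and between 10.69 and 10.79 (median 10.77) in naive mice, again without overlap (log2 difference 0.78 ± 0.097, adjusted p = 1.24e-09). Mrpl14, which faces the small subunit, lay between 9.85 and 10.77 (median 10.44) in epileptic vehicle mice and between 9.53 and 9.79 (median 9.60) in naive mice. Its groups did not overlap either, with a log2 difference of 0.77 ± 0.094 (adjusted p = 9.01e-10). Mrpl28 and Mrpl17, also of the large subunit, were higher by 0.77 ± 0.087 and 0.71 ± 0.069 on the log2 scale (adjusted p = 1.37e-10 and 2.31e-12). Mrps16, of the small subunit, was higher by 0.74 ± 0.084 (adjusted p = 1.37e-10). Of the 68 members, 23 lay wholly above the naive range and 0 wholly below it, where 6.54% and 8.6% of all genes did so.

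The fall in 3 members was small, and their probes were dim. Mean log2 signals were 7.79 for Mrps2, 7.83 for Mrpl57 and 7.05 for Mrpl45. The member probes that failed the filter lay between 6.81 and 6.98, so the size of these falls may be understated. Mrps2, a small subunit protein with a bacterial counterpart, ranged from 7.60 to 7.83 (median 7.69) in epileptic vehicle mice and from 7.72 to 8.01 (median 7.87) in naive mice. These ranges overlapped, and the log2 difference was -0.17 ± 0.038 (adjusted p = 0.000203). Mrpl57 and Mrpl45, large subunit proteins that bacteria lack, differed by -0.14 ± 0.047 (adjusted p = 0.00969) and -0.14 ± 0.043 (adjusted p = 0.00486). Mrpl45, which holds the ribosome against the inner membrane in humans, was detected on 24 arrays only, so its level lay near background. Mrpl37 had the lowest difference of all members without passing the threshold (-0.18 ± 0.079, adjusted p = 0.0557), and it passed in 9 of the other settings tried, among them median scaling (-0.36, adjusted p = 0.00111) and the replicate block (-0.22, adjusted p = 0.0269). Its second kept probe had the opposite sign (0.18, adjusted p = 0.17 over all kept probes).

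**Figure D1:**
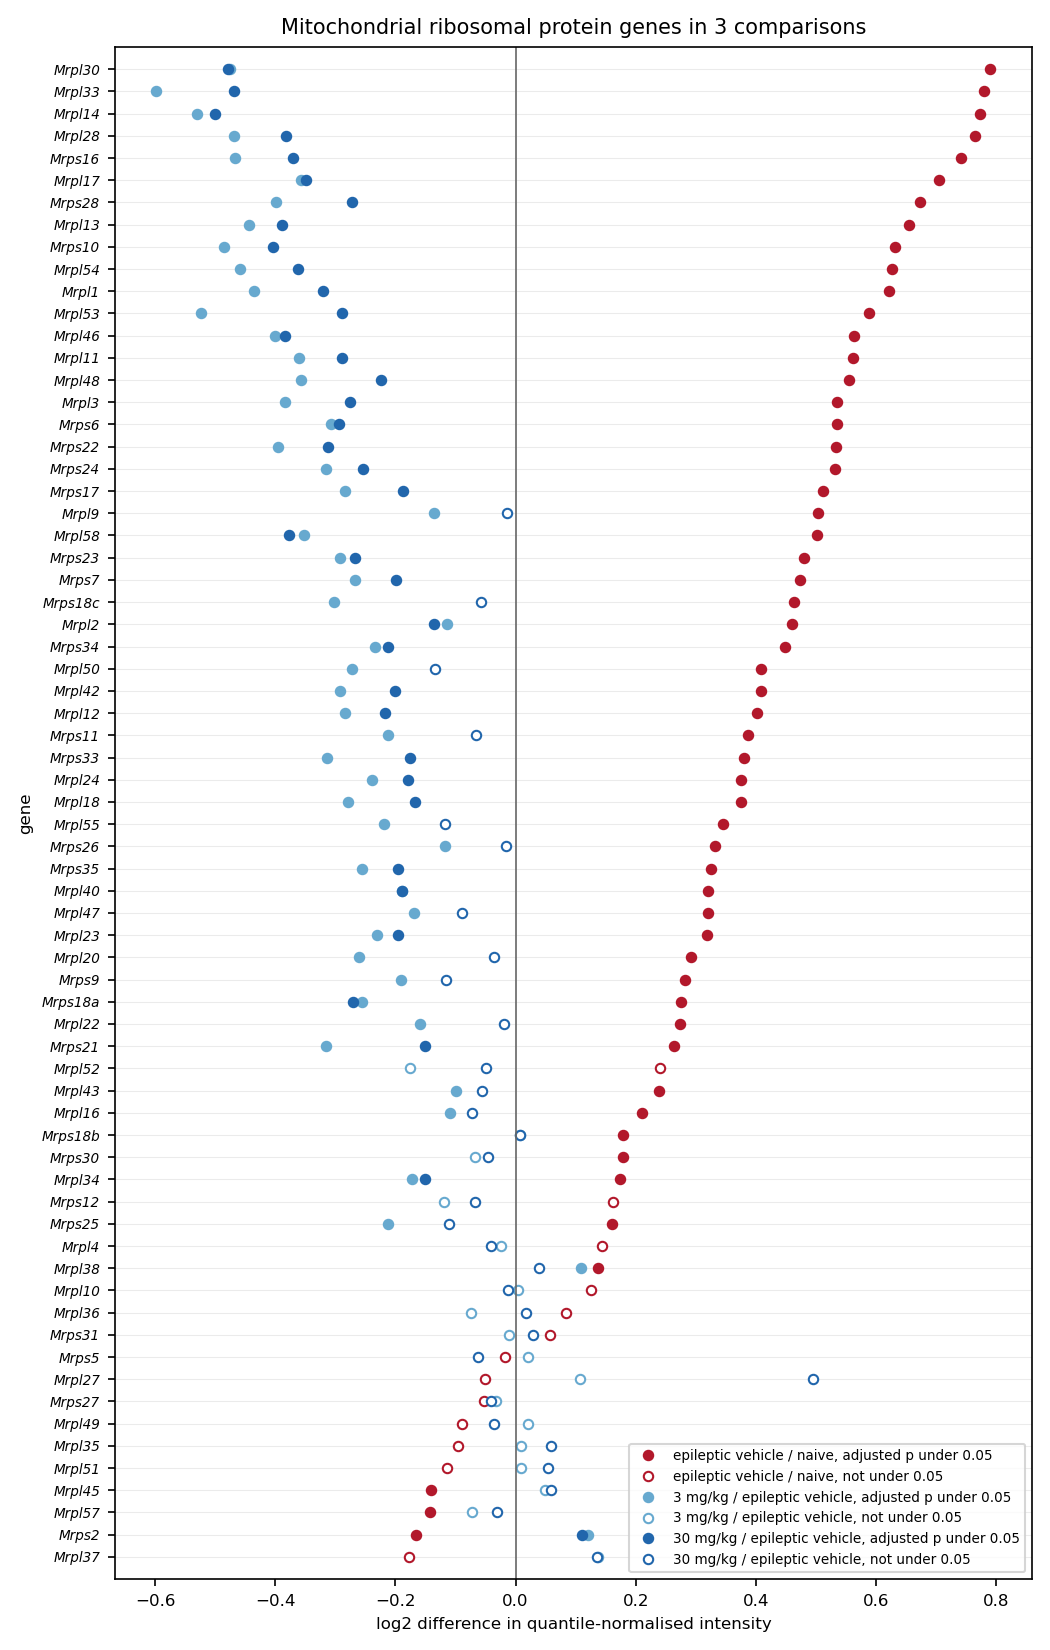
Log2 differences of the 68 members in epileptic vehicle against naive mice and at 3 and 30 mg/kg PLX3397 against epileptic vehicle mice, ordered by the first, with filled points for an adjusted p under 0.05. Most members lie right of 0 in epilepsy and left of 0 at both doses, from Mrpl30 (0.79) at the top to Mrpl37 (-0.18) at the bottom.

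Members of both subunits were called. In epileptic vehicle mice against naive mice 33 of 44 large subunit members were higher and 2 lower (median log2 difference 0.33), as were 19 and 1 of 24 small subunit members (median 0.38). Members with a bacterial homologue counted 33 higher and 1 lower of 41 (median 0.38), and those without 19 higher and 2 lower of 27 (median 0.33). Over all genes 22.6% were called higher and 26.5% lower. Mrps18a and Mrps30, in the large subunit, were both higher. Mrpl58, a peptidyl-tRNA hydrolase that frees stalled ribosomes, was higher too.

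Most members were lower at 3 mg/kg of PLX3397. Against epileptic vehicle mice 49 of 68 members were lower and 3 higher, where 16.9% of all genes were called lower and 18.5% higher. The median log2 difference was -0.24 over the members and 0.01 over all genes. Median scaling left 29 members lower and 4 higher with a median of -0.15, with the median of all genes at 0.04 and 7.76% of them lower and 29.7% higher. The comparisons with naive mice and with either dose use the same epileptic vehicle mice, so their values are not independent.

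At 3 mg/kg Mrpl33 ranged from 10.52 to 11.30 (median 10.96), partly below the vehicle range given above, with a log2 difference of -0.60 ± 0.069 (adjusted p = 2.22e-09). Mrpl14 ranged from 9.47 to 10.13 (median 9.91) and Mrpl30 from 9.60 to 10.27 (median 10.02), each overlapping the vehicle range at its lower end. They differed from vehicle by -0.53 ± 0.067 (adjusted p = 1.38e-08) and -0.48 ± 0.070 (adjusted p = 2.25e-07). Mrpl53, a large subunit protein that bacteria lack, was lower by a log2 of -0.52 ± 0.076 (adjusted p = 2.05e-07). Mrps10, of the small subunit, and Mrpl28 differed by -0.49 ± 0.070 and -0.47 ± 0.062 (adjusted p = 1.64e-07 and 3.16e-08). Mrps2, by contrast, was higher at 3 mg/kg, from 7.71 to 8.04 (median 7.83, log2 difference 0.12 ± 0.027, adjusted p = 0.000307), overlapping the vehicle range. Mrpl38 was higher by 0.11 ± 0.036 (adjusted p = 0.0123), and it was also higher in epilepsy (0.14 ± 0.050, adjusted p = 0.0188), a difference that was 0.01 under median scaling (adjusted p = 0.928). Mrpl37 was higher by 0.14 ± 0.056 (adjusted p = 0.0481), a call at the edge of the threshold that was lost in 12 of the other settings tried. In these the adjusted p of Mrpl37 ran from 0.0504 with trend and robust options to 0.863 with only the arrays of sample numbers up to 24. Its second kept probe was at 0.01 (adjusted p = 0.944 over all kept probes).

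At 30 mg/kg the pattern was the same in direction. Against epileptic vehicle mice 36 of 68 members were lower and 1 was higher, where 15.7% of all genes were called lower and 16.3% higher. The median log2 difference was -0.15 over the members and 0.00 over all genes. Median scaling gave 26 lower and 2 higher with a median of -0.09, with the median of all genes at 0.03 and 8.27% of them lower and 20.4% higher. With only the arrays of sample numbers up to 24, which hold 2 mice of this dose and 11 epileptic mice on vehicle, 1 member and 63 of all 9893 genes were lower, and with only those from 33, 24 members and 896 genes were lower.

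Mrpl14 lay between 9.53 and 10.33 (median 9.85) at 30 mg/kg, overlapping the vehicle range, with a log2 difference of -0.50 ± 0.070 (adjusted p = 2.55e-07). Mrpl30 lay between 9.66 and 10.21 (median 9.96) at 30 mg/kg, with a log2 difference of -0.48 ± 0.073 (adjusted p = 1.09e-06). Mrpl33 lay between 10.70 and 11.50 (median 11.17) at 30 mg/kg, with a log2 difference of -0.47 ± 0.072 (adjusted p = 1.22e-06). For each of these genes the treated mice filled the space between the naive and the vehicle ranges and ran into both. Mrps10 differed by -0.40 ± 0.073, Mrpl13 of the large subunit by -0.39 ± 0.064 and Mrpl46, a large subunit protein that bacteria lack, by -0.38 ± 0.065 (adjusted p = 2.27e-05, 5.11e-06 and 7.15e-06). Mrps2 was the member called higher, from 7.62 to 7.94 (median 7.83) at 30 mg/kg, with a log2 difference of 0.11 ± 0.028 (adjusted p = 0.00179). By subunit, 23 of 44 large and 13 of 24 small subunit members were lower, where 15.7% of all genes were called lower.

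**Figure D2:**
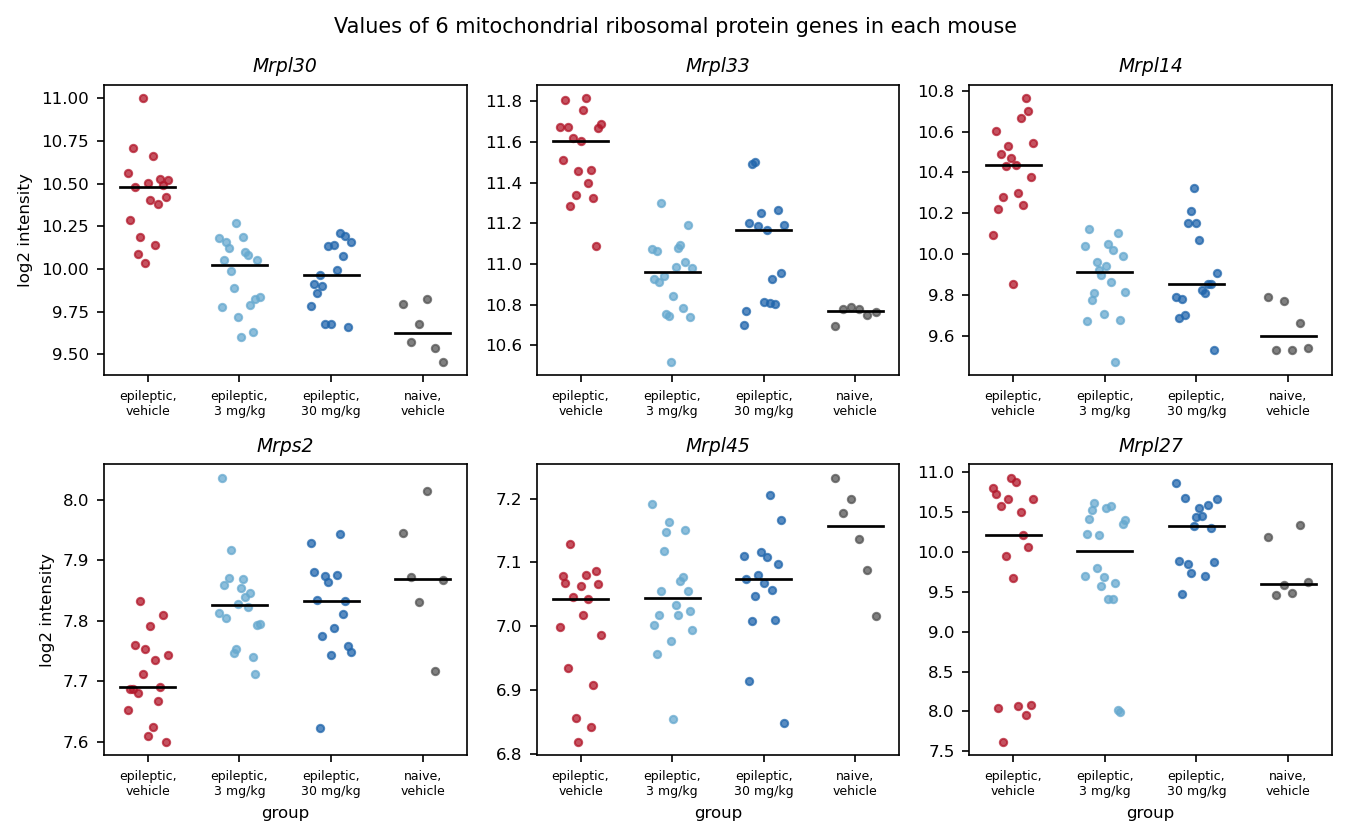
Log2 quantile-normalised intensity of 6 members in each mouse, by group, with a line at the group median. By median, Mrpl30, Mrpl33 and Mrpl14 are highest in epileptic vehicle mice and lowest in naive mice, Mrps2 is lowest in epileptic vehicle mice, Mrpl45 is near background, and Mrpl27 falls near 8 in 7 mice.

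Between the doses no member passed the threshold. Set at 30 against 3 mg/kg, 0 of 68 members were called higher and 0 lower by limma, where 0.92% and 1.25% of all genes were called, and 16 members and 1613 of all 9893 genes had an unadjusted p under 0.05. The mean was higher for the larger dose in 56 of 68 members, with a median log2 difference of 0.06. Mrpl53 differed by 0.23 (95% interval 0.08 to 0.39, adjusted p = 0.0981), with 10.03 to 11.06 (median 10.38) at 30 mg/kg and 9.96 to 10.53 (median 10.19) at 3 mg/kg. For Mrpl30 the interval of the difference was -0.15 to 0.14, and for Mrpl14 it was -0.11 to 0.17. Each of 3 other settings called 1 member higher at 30 mg/kg and none lower. These were Mrps33 with the mean of all kept probes, Mrpl9 with array weights, and Mrpl20 without the 3 arrays of low weight. The same settings called 108, 166 and 153 of all 9893 genes higher.

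Averaged over the 68 centred members, the log2 level per mouse ran from -0.01 to 0.31 (median 0.19) in epileptic vehicle mice. It ran from -0.23 to 0.08 (median -0.07) at 3 mg/kg, from -0.17 to 0.16 (median -0.01) at 30 mg/kg and from -0.21 to -0.18 (median -0.19) in naive mice. Epileptic vehicle and naive mice did not overlap, and both treated groups overlapped vehicle. The naive mice lay close together, with an SD of 0.012, against 0.099 in epileptic vehicle mice. Pearson's r of the member mean with the median signal of the array was -0.06 in epileptic vehicle mice and -0.51 at 3 mg/kg. It was -0.03 at 30 mg/kg and -0.43 in naive mice. Without the 2 mice farthest from the median of that signal, r was -0.59, -0.25, -0.0037 and -0.31 in that order. The part of array signal in the member mean was not tested.

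The running sample numbers of the submitters were cut here into sets of 8, which the labels do not mark as batches. The first and second run named below are sample numbers up to 24 and from 33, a cut that the labels do not mark either. In several sets a group compared was 1 mouse, as the epileptic vehicle group of set 5 and the 30 mg/kg group of set 1. In every set that held both groups, epileptic vehicle mice were above naive mice in this mean (4 of 4 sets, differences 0.29 to 0.42). At either dose the mean was below that of vehicle in 6 of 6 sets, with differences from -0.28 to -0.09 at 3 mg/kg and from -0.34 to -0.04 at 30 mg/kg. The higher dose was above the lower in 3 of 5 sets.

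Cytosolic ribosomal protein genes, which serve the ribosome outside mitochondria and share no protein with it, moved in the same directions. In epileptic vehicle against naive mice 48 of 54 were higher and 1 lower, where 22.6% and 26.5% of all genes were called. The median log2 difference was 0.53, larger than the 0.36 of the mitochondrial set. At 3 mg/kg 46 were lower and 0 higher (median -0.27), where 16.9% of all genes were called lower and 18.5% higher. At 30 mg/kg 37 were lower and 0 higher (median -0.21), where 15.7% of all genes were called lower and 16.3% higher. An unadjusted p under 0.05 was found for 47 and 41 of the set, and for 4305 and 4107 of all 9893 genes. Between the doses limma called 0, with 5 at an unadjusted p under 0.05, where 0.92% of all genes were called higher and 1.25% lower. Median scaling kept these directions, with 46 higher and 1 lower in epilepsy (median 0.51), where 13.0% and 36.7% of all genes were called. It left 45 and 37 genes lower against 0 and 1 higher under the smaller and the larger dose. Of all genes it called 7.76% and 8.27% lower and 29.7% and 20.4% higher at these doses. Rps3 rose most (1.05 on the log2 scale, adjusted p = 3.94e-13), and Rpl19 and Rpl13a fell by 0.50 and 0.48 at 30 mg/kg (adjusted p = 1.8e-07 and 3.1e-06). Rps15a was the gene called lower in epilepsy (-0.19, adjusted p = 0.0139).

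**Figure D3:**
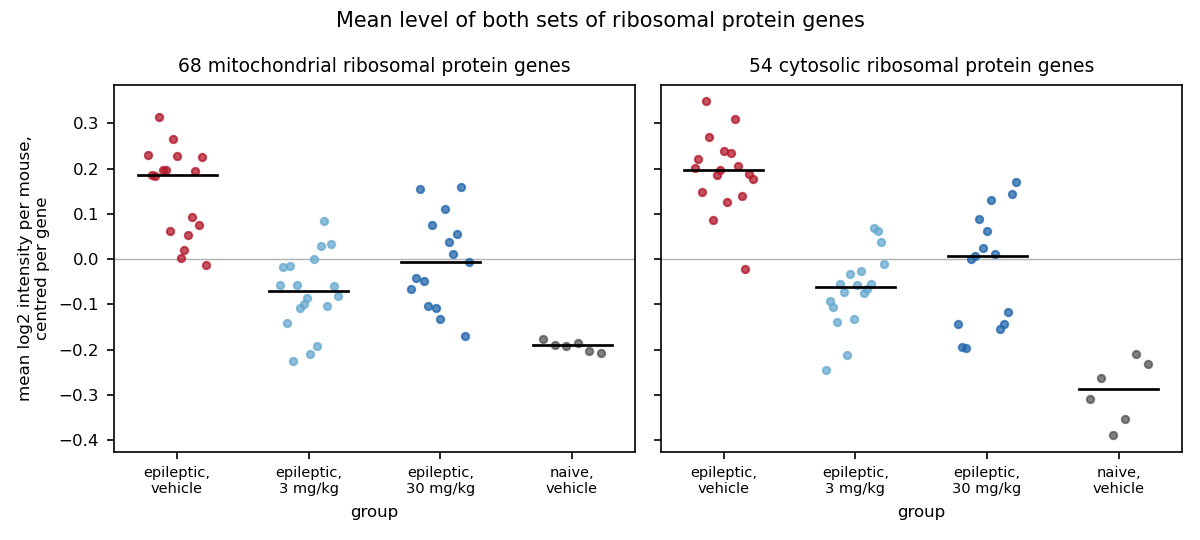
Mean centred log2 intensity of the 68 mitochondrial (left) and 54 cytosolic (right) ribosomal protein genes in each mouse, by group, with a line at the group median. Both sets are highest in epileptic vehicle mice (medians 0.19 and 0.20) and lowest in naive mice (-0.19 and -0.29), with the medians of treated mice between.

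Within groups the sets were related to different degrees. Pearson's r between their means per mouse was 0.49 (Spearman's rho 0.44) in 17 epileptic vehicle mice, 0.61 (0.65) in 18 mice at 3 mg/kg and 0.93 (0.90) in 15 mice at 30 mg/kg. Without the 2 mice farthest from the median of the cytosolic set it was 0.33, 0.56 and 0.91. In the 6 naive mice it was -0.44 (rho -0.49), over a narrow range of member levels, and 0.79 over the 4 left without the 2 farthest. Each point shares its array and its normalisation, and these values are given as a description. The mitochondrial mean minus the cytosolic mean was -0.04 ± 0.094 in epileptic vehicle mice, -0.01 ± 0.074 at 3 mg/kg, 0.02 ± 0.051 at 30 mg/kg and 0.10 ± 0.076 in naive mice (SD), so the gap between epileptic vehicle and naive mice was wider in the cytosolic set. Among members the median correlation between gene pairs was 0.31, 0.28 and 0.41 in the same 3 epileptic groups and 0.00 in naive mice.

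**Figure D4:**
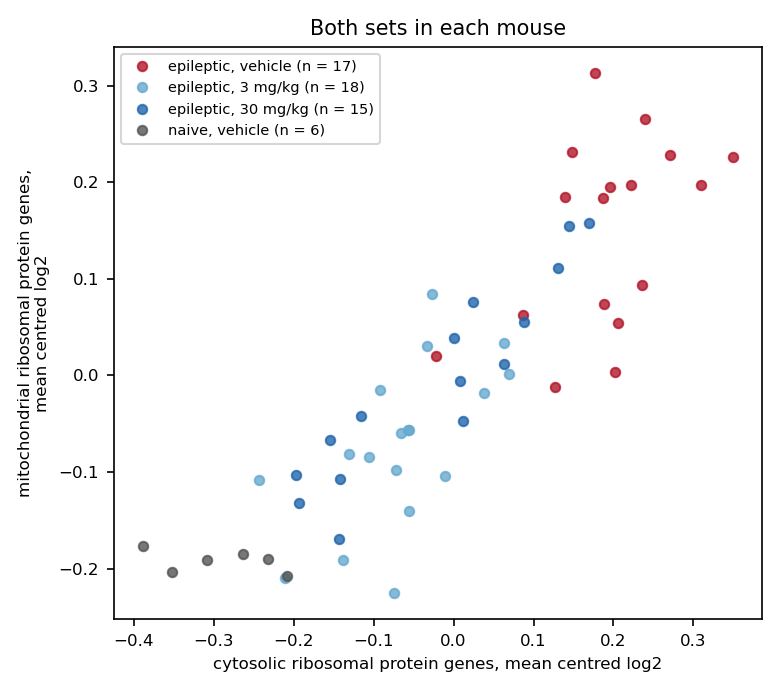
Mean centred log2 intensity of the mitochondrial (vertical) against the cytosolic ribosomal protein genes (horizontal), 1 point per mouse, coloured by group. Mice at 30 mg/kg follow a line (r = 0.93), epileptic vehicle mice scatter at the upper right, and the 6 naive mice lie at the lower left, all near -0.19 on the vertical axis.

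Other genes that mitochondrial translation needs were called in both directions, in most lists at shares near those of all genes (22.6% higher and 26.5% lower in epilepsy). Of 4 tested mitoribosome proteins with other symbols 25.0% were higher and 25.0% lower in epilepsy. Chchd1 of the small subunit was higher in epilepsy (0.58, adjusted p = 2.35e-07) and lower at 3 and 30 mg/kg (-0.46 and -0.34). Dap3, the GTP-binding protein of the small subunit, ran the other way (-0.16 in epilepsy, adjusted p = 0.00327, and 0.14 and 0.16 at the doses, adjusted p = 0.000618 and 0.00013). Among 9 translation factors 22.2% were higher and 22.2% lower. Higher were the release factor Mtrf1 (0.60, adjusted p = 1.51e-10) and the initiation factor Mtif3 (0.31, adjusted p = 1.33e-05). The elongation factors Tufm (-0.30, adjusted p = 4.67e-05) and Gfm1 (-0.14, adjusted p = 0.00355) were lower.

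Of 18 assembly and rRNA modification genes 5 were higher (27.8%) and 4 lower (22.2%) in epileptic vehicle mice, with a median of -0.01. Trub2, a pseudouridine synthase, was higher (0.47) and Dhx30, an RNA helicase of the mitochondrial RNA granule, was lower (-0.41), with adjusted p = 5.06e-06 and 7.59e-11. At the doses both had the opposite sign and passed the threshold, with -0.36 and -0.27 for Trub2 at 3 and 30 mg/kg, and 0.27 and 0.21 for Dhx30. Mettl17, a methyltransferase-like assembly factor, was the gene of these lists called between the doses (0.24 higher at 30 than at 3 mg/kg, adjusted p = 0.00783). Of 14 tested aminoacyl-tRNA synthetases 3 were higher (21.4%) and 6 lower (42.9%), with a median of -0.08. Fars2, for phenylalanine, was higher by 0.65 and Gars, for glycine in cytosol and mitochondria, differed by -0.30 (adjusted p = 8.76e-06 and 1.45e-05).

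Among 18 genes of mitochondrial DNA expression 7 were higher (38.9%) and 3 lower (16.7%), with a median of 0.05. The transcription elongation factor Tefm was higher in epilepsy (0.63, adjusted p = 1.57e-09) and lower at 3 and 30 mg/kg (-0.51 and -0.43). Slirp was higher (0.54) while Lrpprc, with which it forms the complex that keeps mitochondrial mRNAs stable, was lower (-0.37), with adjusted p = 2.53e-05 and 4.35e-09. At 3 mg/kg these were at -0.40 and 0.17 (adjusted p = 2.6e-05 and 4.13e-05), and at 30 mg/kg Lrpprc was higher (0.12, adjusted p = 0.00764) while Slirp was at -0.17 (adjusted p = 0.0988). The RNA polymerase gene Polrmt was lower in epilepsy (-0.22, adjusted p = 3.9e-06). At the doses none of these 5 lists had a median beyond 0.04 in either direction.

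**Figure D5:**
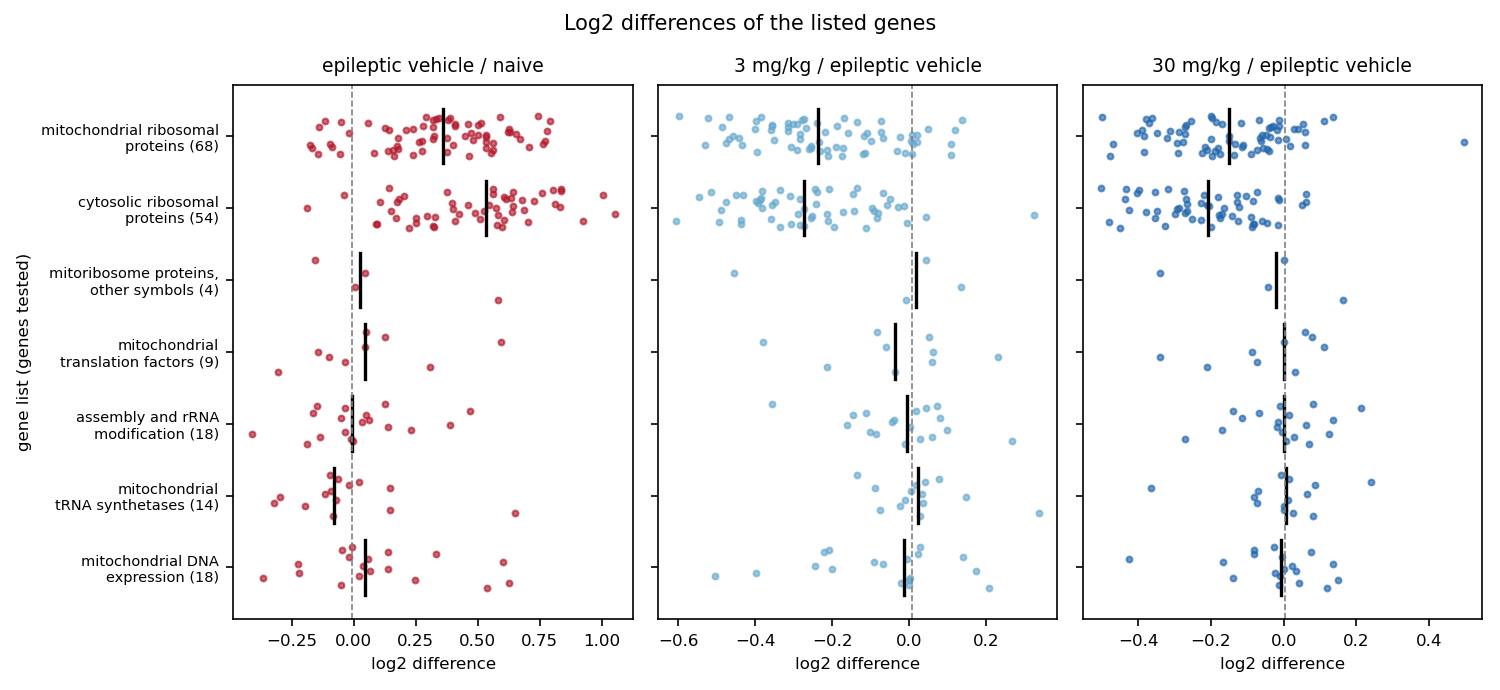
Log2 differences of every tested gene of 7 lists in 3 comparisons, 1 point per gene, with a black line at the median of the list and a dashed line at the median of all 9893 genes. The mitochondrial (0.36) and cytosolic (0.53) ribosomal proteins lie right of the dashed line in epilepsy and left of it at both doses, and the other lists straddle it.

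Cell type markers moved with the same groups. In epileptic vehicle against naive mice 13 of 14 microglia markers and 5 of 9 astrocyte markers were higher, and 6 of 9 neuron markers were lower. Of all genes 22.6% were called higher and 26.5% lower. Of the 6 markers of hippocampal excitatory neurons 1 was higher and 2 were lower, with a median of 0.03. The neuron marker mean per mouse ran from -0.31 to -0.04 in epileptic vehicle mice, from -0.16 to 0.18 at 3 mg/kg, from -0.20 to 0.23 at 30 mg/kg and from 0.17 to 0.41 in naive mice. The microglia marker mean ran from -0.02 to 0.86 in epileptic vehicle mice, from -0.18 to 0.31 at 3 mg/kg, from -0.49 to 0.13 at 30 mg/kg and from -0.50 to -0.31 in naive mice. The astrocyte marker mean ran from -0.14 to 0.47 in epileptic vehicle mice and from -0.40 to -0.26 in naive mice, with medians of -0.03 and -0.04 at 3 and 30 mg/kg. Within groups Pearson's r of the member mean with the neuron marker mean was 0.03 in epileptic vehicle mice, -0.60 at 3 mg/kg, -0.90 at 30 mg/kg and -0.42 in naive mice. Without the 2 mice farthest from the marker median, r was -0.22, -0.33, -0.89 and -0.03 in that order. With the microglia marker mean r was -0.75 in epileptic vehicle mice, where its sign was opposite to that in the treated groups (0.17 for the smaller and 0.47 for the larger dose) and in naive mice (0.53). Without the 2 farthest mice it was -0.61, 0.03, 0.30 and 0.96. With oligodendrocyte markers r was -0.70 in epileptic vehicle mice, -0.38 and -0.44 in the treated groups and 0.58 in naive mice. Without the 2 farthest mice it was -0.62, -0.38, -0.23 and -0.595, so the sign in naive mice changed. These last naive values rest on 4 mice. At 30 mg/kg, 12 of 14 microglia markers were lower than in vehicle and 5 lower than at 3 mg/kg. Of all genes 15.7% and 1.25% were called lower in these comparisons. Between the doses the median log2 difference was -0.21 over the microglia markers and 0.06 over the members. The part of these cells in the members' levels was not tested.

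Members are short genes, with a median span of 7610 bp, against 21287 bp over all tested genes and 3310.5 bp over the cytosolic set (RefSeq, GRCm38.p6). Over all genes the median log2 difference between epileptic vehicle and naive mice was 0.06 in the quintile of shortest span and -0.09 in that of longest span. The 30 members in the quintile of shortest span had a median of 0.36. Across the 68 members Spearman's rho of that difference with span was 0.07, and with mean signal 0.34. The part of span and signal in the differences was not tested.

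For 17 members several probes were kept. They agreed in sign except for 3 members in the epilepsy comparison, 3 at 3 mg/kg and 2 at 30 mg/kg. The brightest of 4 probes for Mrpl49, a large subunit protein that bacteria lack, differed by -0.09 in epileptic vehicle against naive mice (adjusted p = 0.223, over all kept probes), while 2 others were higher by 0.34 and 0.25 (adjusted p = 0.000176 and 2.9e-05). At 3 mg/kg the same 2 probes were lower (-0.25 and -0.17). For Mrps5, of the small subunit, the brightest probe differed by -0.06 at 30 mg/kg (adjusted p = 0.321), while the other was higher by 0.21 (adjusted p = 1.3e-05). No direction is therefore given for these genes.

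Of the 8 members not kept, Mrpl15 and Mrps15 came nearest, each detected on 5 arrays, and Mrps14 was detected on 2. Mrpl19, Mrpl21, Mrpl32, Mrpl39 and Mrps36 were detected on 0 arrays. Mrps36 is now placed in the oxoglutarate dehydrogenase complex rather than in the ribosome. The kept member nearest to the limit was Mrpl45 with 24 arrays, followed by Mrpl51 with 55, and the other 66 were detected on all 56.

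Mrpl27, a large subunit protein whose bacterial counterpart lies near the site of peptide bond formation, varied most from mouse to mouse. Its SD within groups was 0.86 on the log2 scale, where the median member had 0.14 and the next, Mrps12, had 0.34. Values lay between 7.62 and 8.08 in 7 mice and between 9.41 and 10.93 in the other 49. Of the 7, 5 were epileptic vehicle mice and 2 were mice at 3 mg/kg, whereas 0 of 15 at 30 mg/kg and 0 of 6 naive mice fell that low. The log2 difference of 0.50 at 30 mg/kg against vehicle had a 95% interval from -0.10 to 1.09 (adjusted p = 0.2), and Mrpl27 was called in no comparison.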

How the data were processed

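The authors deposited probe signal intensity from GenomeStudio 2011.1, without background subtraction or normalisation, each with a detection p-value, and a table of log2 values quantile normalised with lumi. Versions other than that are not given in the sources used here. Here intensities were log2 transformed and quantile normalised, probes were named through the platform annotation updated to RefSeq (23978 of 25697 with 1 gene, 1719 with none listed), and 14058 probes passed the detection filter. Sample titles gave the groups, which entered a limma model (version 3.58.1, R 4.3.3; lmFit, eBayes, all 4 groups, no covariates, Benjamini-Hochberg over 9893 genes, threshold 0.05). Set means per mouse are means of log2 values centred per gene. No probe level was set against that of another probe. The number of arrays limits the precision.

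The members and lists were chosen with earlier results of these data known. By the rule for named genes, up to 6 members with the largest difference in each direction of each comparison were named, with members called in opposite directions, members at the filter's edge or with probes that disagree, and up to 2 genes of each other list in each direction, from which a selection is given. Mrpl27 and the correlations between sets, markers and array signal were singled out after the values were seen. Alternatives were median scaling, normexp correction of the background, the log2 table of the authors, no and a stricter detection filter, the mean of all probes, array weights, sets of 8 sample numbers, runs of sample numbers and replicate numbers as blocks, only the 2 groups compared, trend and robust options, leaving out each naive mouse, and, chosen after seeing the data, leaving out 3 arrays of low weight and each run alone.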

Additional observations from a re-analysis of the deposited data

How the results depend on the processing

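In epileptic vehicle against naive mice the number of members higher ran from 49 to 52, and lower from 3 to 4, when each naive mouse was left out in turn. Over all 9893 genes these fits called 2057 to 2149 higher and 2434 to 2544 lower. The members lower numbered 8 with median scaling, 6 with the set of 8 sample numbers blocked and 5 with the run blocked, and median scaling brought the median difference to 0.19. The same settings called 3630, 2756 and 2755 of all genes lower. At 30 mg/kg the members higher than in vehicle were 2 with median scaling, without a detection filter or with only the 2 groups, 3 with the mean of all probes or the run block, and 4 with the set block. Of all genes 2023, 1504 (of 16590 without the filter), 1594, 1634, 1557 and 1695 were higher in that order. At 3 mg/kg 29 members and 768 of all genes were lower with median scaling. Between the doses the mean of all probes, array weights and, chosen after seeing the data, leaving out the 3 arrays of low weight called 1 member higher. They called 108, 166 and 153 of all 9893 genes higher. With the first run alone, chosen after seeing the data, 1 member was lower and 0 higher at 30 mg/kg and 1 was higher at 3 mg/kg. That run holds 2 mice at 30 mg/kg. Of all genes it called 63 lower and 96 higher at 30 mg/kg and 1448 higher at 3 mg/kg. With the second run alone 2 members and 802 of all genes were higher at 30 mg/kg. The cause of the other changes was not tested.

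With the mean of all probes Mrpl49 reversed to 0.13 in epilepsy and to -0.10 at 3 mg/kg, and Mrps5 reversed to 0.075 at 30 mg/kg, as it did with the set block (0.071). Mrpl38 in epilepsy was 0.11 without naive mouse 6 (adjusted p = 0.0727).

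Groups share replicate numbers in the labels. These follow the order of the sample numbers within each group and were not taken as pairs. Over 65 same-numbered pairs the median correlation of deviations was 0.05, with 19 over 0.1. Over 1066 other pairs it was -0.01, with 302 over 0.1. With the replicate number as a block 51 members were higher and 2 lower in epilepsy, 37 lower and 2 higher at 30 mg/kg, 47 lower and 2 higher at 3 mg/kg, and 0 in either direction between the doses. Of all 9893 genes this block called 2288 higher and 2698 lower in epilepsy, and 1597 lower and 1752 higher at 30 mg/kg. At 3 mg/kg it called 1662 lower and 1872 higher, and between the doses 114 higher and 136 lower. The member calls lost included Mrpl45 and Mrpl57 in epilepsy (adjusted p = 0.0847 and 0.0526).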

Other observations

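After the uneven values of Mrpl27 had been seen, its deviations from the group means were set against those of the 9892 other tested genes over the 56 mice. The gene most like it was Ankrd40 (r = 0.84, rho 0.83, and 0.82 without the 2 mice farthest from the median of Mrpl27). The next by size of r were Ipmk (-0.53), Naa15 (-0.50), Adcyap1r1 (-0.49), Pdk2 (0.49), Wdr83 (-0.48) and Rsad1 (-0.47). In the RefSeq table Ankrd40, Pdk2 and Rsad1, which are 3 of the 10 genes most like Mrpl27, lie on chromosome 11 within 1 Mb of it. Of all the genes compared 27 lie within that distance. Chromosome 11 holds 8.83% of the genes compared. The genes were chosen by these values, all mice share the same normalisation, and no p is given.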
